A study of Mus musculus with 18 samples.

Results

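The genes described here encode the proteins of the cytosolic ribosome. They were chosen by symbol, as the protein-coding mouse genes named Rps or Rpl with a number, together with Rpsa, Rplp0, Rplp1 and Rplp2. Of 35275 gene IDs in the deposited expression table, 83 met this rule. They comprise 31 genes for proteins of the small (40S) subunit, 43 for proteins of the large (60S) subunit, 3 for the P stalk, which recruits translation factors to the large subunit, and 6 paralog genes, close relatives of a core gene. Ribosomal protein genes that the pattern leaves out include Fau, which encodes a ribosomal protein fused to a ubiquitin-like protein, Rack1 and Rpl36al.

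The libraries were made from pan B cells isolated from the spleens of C57BL/6 mice. A pretreatment of 1 h came first, at 1000 ng/ml, either a control antibody (Ab groups) or mBaffR-mFc (BRFc groups), a fusion of the BAFF receptor BR3 used to mask the site by which BAFF binds BR3. They were then kept for 4 h with 100 ng/ml of BAFF 3mer, with 100 ng/ml of BAFF 60mer, or without BAFF. Each of the 6 groups, Ab, Ab_3mer, Ab_60mer, BRFc, BRFc_3mer and BRFc_60mer, has 3 libraries, and every group received a pretreatment protein. The labels do not say whether the libraries of a group came from separate mice, so the p-values below reflect only how much these libraries differ, which may be technical.

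BAFF is a cytokine that keeps mature B cells alive through BR3, and the 60mer is a larger assembly of the trimer. A ribosome needs most of its proteins in equal numbers, and free ribosomal proteins are degraded. In mammals the output of these genes is adjusted largely at translation: their mRNAs begin with a C followed by a run of pyrimidines, the 5′ terminal oligopyrimidine (TOP) tract, which couples their translation to the kinase mTORC1. Only mRNA levels were measured here, and they do not read such control of translation.

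The start of the mRNA, where the TOP tract lies, was not used by the choice by symbol. RefSeq start sites (GRCm38.p6) were at hand for 63 of the 83 genes, 75 sites in all. The windows below hold 15 bases before and 15 bases from the annotated start. Capitals mark a C and the pyrimidines after it, where such a match began within 5 bases of the start. The windows show 5 core genes picked for having such a run and the 3 paralog genes whose mRNA was measured.
Rps6 (chr4:86857353-86857382, minus strand): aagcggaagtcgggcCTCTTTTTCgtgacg
Rps27 (chr3:90213634-90213663, minus strand): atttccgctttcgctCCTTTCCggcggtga
Rpl35 (chr2:39005117-39005146, minus strand): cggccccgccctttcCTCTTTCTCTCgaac
Rpl13a (chr7:45128731-45128760, minus strand): gaaaccctgcgacaagaCCTCCTCCTTTCC
Rps2 (chr17:24720048-24720077, plus strand): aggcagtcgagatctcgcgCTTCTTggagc
Rpl22l1 (chr3:28805493-28805522, plus strand): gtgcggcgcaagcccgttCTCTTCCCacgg
Rps27l (chr9:66946071-66946100, plus strand): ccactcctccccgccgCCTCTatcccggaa
Rpl7l1 (chr17:46782642-46782671, minus strand): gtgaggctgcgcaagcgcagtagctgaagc
In Rps6, Rps27 and Rpl35 the capitals start at the annotated first base, because the match nearest to it was taken. The base just before is a pyrimidine too, so the stretch in the genome began earlier. In the Rpl7l1 window there was no such run. A C followed by at least 4 pyrimidines on the sense strand, starting within 5 bases of the annotated start, was found at 41.3% of the 75 sites and at 18.3% of all 32851 sites, so that most sites of these genes had none by this rule. By gene, 29 had such a run and 34 did not. With the C required at the annotated first base, whatever the base before it, the shares were 17.3% and 2.51%. The letters CCGGAAG, on either strand in the 250 bases before the start, were found at 26.7% of the sites of these genes and at 6.91% of all sites. These are matches of letters, and annotated starts can differ from those used in B cells.

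The deposited values are FPKM, fragments scaled to the length of the gene and the total of the library, so that levels of different genes can be set side by side. Library totals recovered from the steps between low values ran from 12.2 to 25.4 M fragments, and these totals limit the precision of low values only. Differences between groups were tested with limma on log2(FPKM + 1) over the 11646 genes whose mean reached 1 FPKM. A gene is said to pass where its p, adjusted over all of them by Benjamini-Hochberg, was under 0.05. The B cell markers were high in every library, with a summed level of 3063 to 3417 FPKM for 10 of 10 genes. Markers of other cells were present at lower summed levels, 108.3 to 142.0 FPKM for T cells and 164 to 201 FPKM for myeloid cells. Transcripts of connective tissue (6 genes) summed to 8.14 to 12.9 FPKM in 8 libraries, namely Ab_3mer replicates 1 and 2, all of Ab_60mer and all of BRFc_60mer, and to 0 to 0.131 FPKM in the other 10. Beyond a fit of the 8 libraries alone, given in the closing section, the part of such cells in the results below was not tested. BRFc replicate 3 stood apart for ribosomal protein genes, and differences against the BRFc group are given with and without it.

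Ribosomal protein genes were among the most abundant transcripts of these cells. Of the 83 genes, 80 reached a mean of 1 FPKM, with a median of 1390.2 FPKM against 17.7 FPKM over all genes tested, and 61 exceeded 1000 FPKM. They made up 64 of the 100 genes with the highest mean level. Rpl13a, a 60S protein that also has roles outside the ribosome, was highest at 3958 FPKM (range 3161 to 4377 over 18 libraries). It was followed by Rps24 (3073 FPKM, 2331 to 3366), a 40S protein needed for processing of ribosomal RNA. Rps29, a small zinc-binding 40S protein, had 2775 FPKM, the P stalk protein Rplp1 2667 FPKM and the 40S protein Rps14 2343 FPKM. Genes of the 40S subunit had a median of 1759 FPKM and those of the 60S subunit 1293 FPKM. Each of the 80 varied by less than 2-fold between its highest and lowest library, with a median ratio of 1.35.

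**Figure D1:**
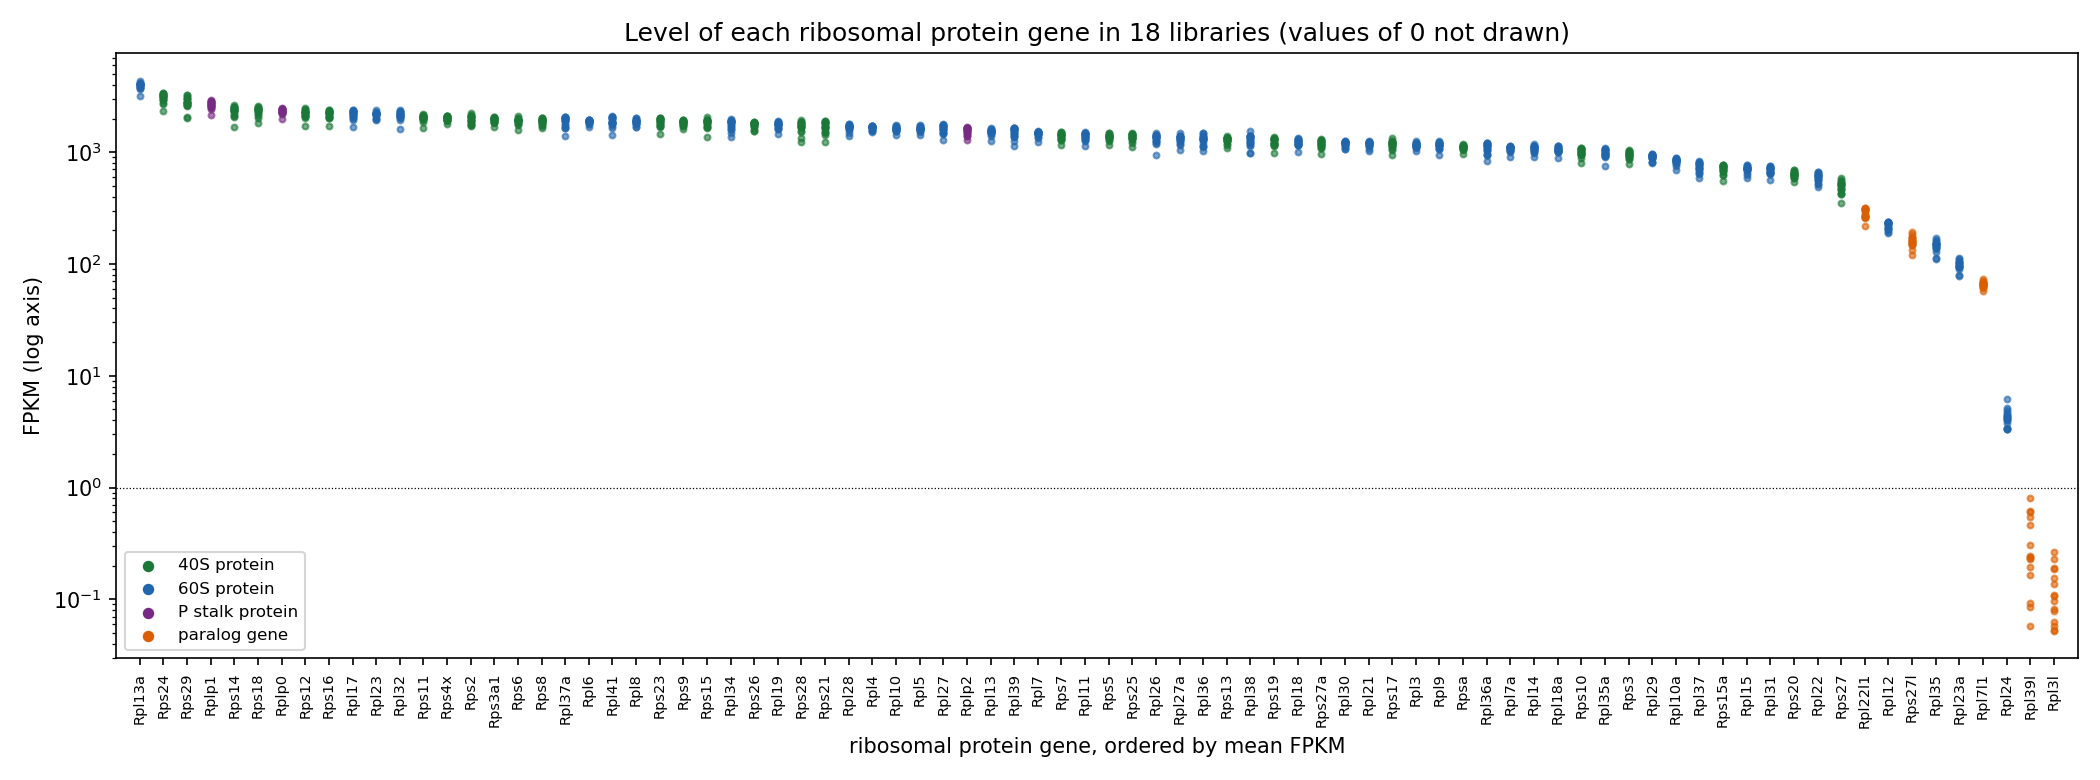
FPKM on a log axis for each ribosomal protein gene in the 18 libraries, in order of mean level, with 1 point per library and the dotted line at 1 FPKM. Most genes lie near 1000 FPKM or above, Rpl24 lies at 3.31 to 6.25 FPKM, and Rpl39l and Rpl3l lie below 1 FPKM; Rpl10l is listed at 0 and not drawn.

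The share of the summed FPKM taken by the 83 genes ran from 14.95% in BRFc replicate 3 to 18.8% in Ab_60mer replicate 1, with a median of 17.9%. The next lowest library was Ab replicate 3 at 16.6%. Group means were 17.7% ± 1.03 in Ab, 17.7% ± 0.297 in Ab_3mer, 17.9% ± 0.893 in Ab_60mer, 17.05% ± 1.85 in BRFc, 18.3% ± 0.103 in BRFc_3mer and 17.5% ± 0.835 in BRFc_60mer (SD, n = 3). These means lay closer together than the libraries within Ab or within BRFc. The summed level of the 60S and stalk genes was 1.23 to 1.26 times that of the 40S genes in each of the 18 libraries, so that the subunits kept nearly the same proportion in the libraries with the lowest and the highest share. The size of this ratio depends on the symbol rule. The 40S sum leaves out Fau (1832 FPKM), Rack1 (995 FPKM) and Rps27rt (4866 FPKM), a copy of the 40S gene Rps27 described below. The 60S sum leaves out Rpl36al (306 FPKM). In bulk RNA, fewer cells of a type and less RNA per cell cannot be told apart.

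At the low end of the core genes stood Rpl24, Rpl23a, Rpl35 and Rpl12, which all encode 60S proteins. Rpl24 (chr16:55966275-55971435) was at 4.26 FPKM, the gene just above the minimum of 1 FPKM, and Rpl23a (chr11:78180932-78183584) was at 97.8 FPKM. Rpl35 (chr2:39001580-39005624) was at 145 FPKM and Rpl12 (chr2:32961559-32965345) at 220.4 FPKM. The first 3 share a feature of the annotation (GENCODE M21, GRCm38): another gene overlaps 47.0%, 59.7% and 66.2% of their exon bases. For Rpl24 this is Gm28037 on the same strand, which is listed at 0 in the table. For Rpl23a it is Tlcd1 on the opposite strand at 10.1 FPKM, and for Rpl35 it is Wdr38 on the opposite strand at 1.03 FPKM. Among the other tested ribosomal protein genes the largest such overlap was 29.4%, at Rpl13a, the gene with the highest level. Rpl12 had an overlap of 1.56% only. Whether fragments in shared exons were left uncounted was not tested, and the counting method is not given in the sources used here, so the levels of these genes are uncertain.

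**Figure D2:**
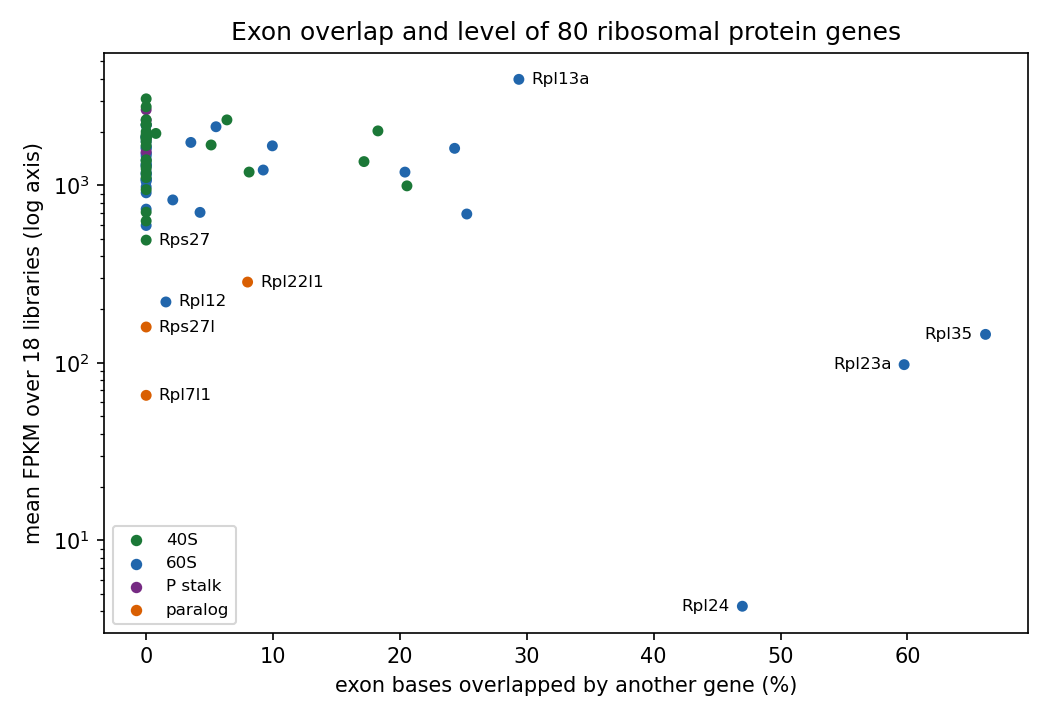
Share of a gene's exon bases that another annotated gene overlaps (horizontal axis, %) against its mean FPKM over 18 libraries (vertical, log axis), with 1 point for each of the 80 tested ribosomal protein genes. Rpl24, Rpl23a and Rpl35 stand alone at 47.0% to 66.2%, with 4.26, 97.8 and 145 FPKM.

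Ribosomal protein genes have many processed copies in the genome, and reads that match several places can be assigned to any of them. For 78 of the 83 genes, at least 1 other annotated gene matched the coding sequence at 95% identity or more over 100 bases or more. The 613 copies found included 438 listed in the table, of which 61 reached 1 FPKM and 12 reached 10 FPKM. Copies summed to over 1% of the level of their parent for 12 genes and to over 5% for 4, which were Rps27, Rpl24, Rps12 and Rpl23a. Rps12-ps3 was at 182 FPKM against 2210.5 FPKM for Rps12.

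The sum was larger than the parent for Rps27, whose 40S protein binds zinc. Rps27 (chr3:90212522-90213651) was at 492 FPKM, and Rps27rt (chr9:114982366-114982739), a gene with the same coding sequence of 252 bases, was listed at 4866 FPKM. The first 120 coding bases of both and of the paralog Rps27l are shown because the first pair cannot be told apart by reads within them, whereas Rps27l differs from Rps27 at the 28 bases in capitals.
Rps27: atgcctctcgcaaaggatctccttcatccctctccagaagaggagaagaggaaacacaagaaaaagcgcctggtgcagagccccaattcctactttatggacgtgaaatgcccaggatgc
Rps27rt: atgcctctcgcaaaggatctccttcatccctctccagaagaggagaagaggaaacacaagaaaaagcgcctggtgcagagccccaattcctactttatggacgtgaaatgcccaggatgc
Rps27l: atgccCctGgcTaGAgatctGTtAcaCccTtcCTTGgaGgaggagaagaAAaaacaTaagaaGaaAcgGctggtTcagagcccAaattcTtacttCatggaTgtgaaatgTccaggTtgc
Rps27rt was listed at 7.697 to 11.9 times Rps27 over the 18 libraries. The mean ratio was 9.08 ± 0.652 in Ab_60mer and 8.21 ± 0.481 in BRFc_60mer, and 10.03 ± 1.15, 11.3 ± 0.575, 10.6 ± 0.886 and 10.3 ± 0.340 in Ab, Ab_3mer, BRFc and BRFc_3mer (SD, n = 3). The ratio was not tested, and neither gene passed the test in any of the comparisons of 2 groups below. The level of Rps27 alone is therefore uncertain, and Rps27rt is not counted among the 83 genes.

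The paralog genes fell into a measured and an unmeasured set of 3 each. Rpl22l1, whose protein can take the place of Rpl22, was at 285 FPKM, 39.7% to 52.5% of Rpl22 (595 FPKM) over the libraries. Rps27l, a target of p53, was at 159 FPKM, 29.5% to 37.7% of Rps27. That ratio is as uncertain as the level of Rps27, since Rps27rt, with the same coding sequence, was listed at 4866 FPKM. Rpl7l1, thought to act in assembly of the large subunit, was at 65.7 FPKM, 4.12% to 4.76% of Rpl7 (1461 FPKM). Rpl39l, known for expression in male germ cells, had a mean of 0.272 FPKM (0 to 0.813) and Rpl3l, known from heart and skeletal muscle, 0.103 FPKM (0 to 0.264). Rpl10l, a retrogene of Rpl10 active in the testis, was listed at 0. These 3 stayed below the minimum of 1 FPKM and were not tested.

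BAFF 60mer after control antibody changed many transcripts but no ribosomal protein gene passed the test. Of the 80 genes, 0 passed limma, where 14% of all genes tested did, and 2 had an unadjusted p under 0.05 (2.5% of the 80, against 29.6% of all genes). The median log2 difference of the 80 genes, Ab_60mer minus Ab, was 0.00, against -0.02 over all genes. The 95% confidence interval of the difference lay within 0.32 of 0 on the log2 scale for 69 of the 80. That was 86.2% of them, against 57.5% of all genes. The bound of 0.32 is used for all comparisons below. The median differences of the 40S, 60S and stalk genes were 0.00, 0.00 and 0.01. The stalk gene Rplp0, which anchors Rplp1 and Rplp2 to the ribosome, was at 2417, 2431 and 2287 FPKM in Ab and at 2487, 2303 and 2424 FPKM in Ab_60mer, with partial overlap. Rps6, the 40S protein that S6 kinase phosphorylates, was at 1944, 2022 and 1799 FPKM in Ab and at 2103, 1849 and 1903 FPKM in Ab_60mer, again overlapping. The 18 genes tested that are mutated in Diamond-Blackfan anaemia had a median difference of 0.02 (-0.04 to 0.14), and 0 of them passed limma, none with an unadjusted p under 0.05. Rpl5 and Rpl11, which with 5S RNA form the particle that restrains MDM2, were at 0.01 and 0.04.

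The paralog Rpl7l1 came nearest to the threshold. It was at 65.1, 65.2 and 62.5 FPKM in Ab and at 73.7, 69.5 and 71.1 FPKM in Ab_60mer, so that all treated libraries lay above all untreated ones. Its log2 difference was 0.15 ± 0.049 (SE; limma adjusted p = 0.0519), and over the alternative settings the adjusted p ran from 0.0104 to 0.238. It passed under 5 of them, listed in the closing section. Rpl23a, a 60S protein at the exit of the peptide tunnel, was at 95.7, 95.1 and 78.7 FPKM in Ab and at 113.7, 105.9 and 94.9 FPKM in Ab_60mer. The lowest Ab_60mer library lay below 2 of the Ab libraries, and the log2 difference was 0.22 ± 0.078 (limma adjusted p = 0.0665, range 0.0255 to 0.273). Without Ab_60mer replicate 3 it was 0.29 ± 0.081 and passed (limma adjusted p = 0.0255).

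Other genes of ribosome supply are given beside the 14% of all genes that passed in this comparison, and the share of each list except that of mTORC1 was near or below it. Of 24 genes of MYC and ribosome biogenesis, 2 rose and 1 fell: Polr1a, the large subunit of RNA polymerase I (0.19 ± 0.056, SE), and Wdr12, a factor in 60S assembly (0.23 ± 0.065), rose, and Max, the partner of MYC, fell (-0.22 ± 0.045). Of 16 genes of the mTORC1 pathway, Mtor itself rose (0.20 ± 0.044), and the kinase gene Rps6kb2 (-0.31 ± 0.074) and the inhibitor Ddit4 (-0.65 ± 0.205) fell. Of 22 translation initiation factors, 2 rose and 1 fell. Of 76 mitochondrial ribosomal protein genes, 2 rose and 4 fell, with Mrps22 the largest rise at 0.35 ± 0.087. Of 19 other genes with a known TOP tract, the cytoskeletal gene Vim alone passed, at -0.38 ± 0.061. The medians of these lists ran from 0.00 (other TOP genes) to 0.07 (MYC and ribosome biogenesis). Markers of cell types also passed: of the B cell markers 2 of 10 rose and 2 fell, and 3 of 7 NK cell, 1 of 8 T cell and 1 of 8 myeloid markers fell. The dendritic cell marker Zbtb46 (0.62 ± 0.093, 1 of 3 tested) and the connective tissue gene Col3a1 (2.08 ± 0.412, the one tested) rose. Their part in these differences was not tested.

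Under mBaffR-mFc, BAFF 60mer again left the family without a gene that passed. Of the 80, 0 passed limma against 4.83% of all genes, and 4 had an unadjusted p under 0.05 (5% against 18.7%). The median difference, BRFc_60mer minus BRFc, was 0.04 against -0.02 over all genes, and -0.06 without BRFc replicate 3. The intervals of 72 of the 80 lay within that bound (90%, against 64.2% of all genes), and without BRFc replicate 3 there were 66. Of the 80 differences 69 lay above 0, where 5007 of all 11646 genes did, and without BRFc replicate 3 there were 10. Rpl35, a 60S protein near the tunnel exit, was at 149.6, 111.6 and 112.9 FPKM in BRFc and at 162.6, 154.5 and 150.04 FPKM in BRFc_60mer. All treated libraries lay above the untreated ones, by little in the case of BRFc replicate 1. The difference was 0.33 ± 0.098 (limma adjusted p = 0.0649, range 0.00327 to 0.27). Without BRFc replicate 1 it was 0.47 ± 0.082 and passed (limma adjusted p = 0.00327). Rpl23a was at 94.4, 90.05 and 79.0 FPKM in BRFc and at 105.2, 104.9 and 102.0 FPKM in BRFc_60mer, without overlap. Its difference was 0.25 ± 0.078 (limma adjusted p = 0.0835, range 0.0346 to 0.348), and without BRFc replicate 1 it was 0.30 ± 0.084 and passed (limma adjusted p = 0.0467). Without BRFc replicate 3 the differences were 0.27 ± 0.107 for Rpl35 (limma adjusted p = 0.27) and 0.17 ± 0.079 for Rpl23a (limma adjusted p = 0.348), and 4 of the 80 again had an unadjusted p under 0.05 (5% against 13.9% of all genes). The connective tissue transcripts summed to at least 8.14 FPKM in all libraries of Ab_60mer and BRFc_60mer and to at most 0.0569 FPKM in those of Ab and BRFc, so their carriage and BAFF 60mer cannot be told apart in both comparisons with untreated cells.

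For BAFF 3mer no gene of any kind passed. After control antibody, 0 of the 80 ribosomal protein genes and 0% of all genes passed limma, and 0 of the 80 had an unadjusted p under 0.05 (5.43% of all genes). The median difference, Ab_3mer minus Ab, was -0.02 against -0.01 over all genes. Of the 80 intervals, 73 lay within that bound (91.2%, against 72.2% of all genes). Rpl35 (-0.14 ± 0.098) and Rpl23a (0.10 ± 0.078) had the smallest p (limma adjusted p = 0.889 and 0.901). Under mBaffR-mFc, again 0 of the 80 and 0% of all genes passed limma, and 9 of the 80 had an unadjusted p under 0.05 (11.2% against 3.33%). There 79 of the 80 differences, BRFc_3mer minus BRFc, lay above 0, where 5111 of all 11646 genes did. The median was 0.14 against -0.01 over all genes. This rested on BRFc replicate 3: without it the median was 0.02, and without BRFc replicate 1 it was 0.22. Without BRFc replicate 3, 57 of the 80 differences lay above 0, and the median over all genes was -0.003. There 1 of the 80 had an unadjusted p under 0.05 (against 2.55% of all genes). The 80 genes share a level in each library, as described below, so such counts are not of separate observations. The members with the smallest p were Rpl23a (0.25 ± 0.078) and Rpl35 (0.24 ± 0.098), both with a limma adjusted p of 0.999, and without BRFc replicate 3 they were at 0.17 ± 0.079 and 0.18 ± 0.107. With all libraries 43 of the 80 intervals lay within that bound (53.8%, against 74.1% of all genes). Without BRFc replicate 3 there were 75.

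The forms of BAFF were also compared directly, at the same mass dose and time. These comparisons share their libraries with those against untreated cells. After control antibody, 0 of the 80 passed limma against 4.81% of all genes, and 1, Rpl7l1, had an unadjusted p under 0.05 (against 20.3% of all genes). The median, Ab_60mer minus Ab_3mer, was 0.02 against 0.00 over all genes. Of the 80 intervals, 76 lay within that bound (95%, against 63.8% of all genes). Rpl7l1 was at 67.1, 67.3 and 63.1 FPKM in Ab_3mer, below each library of Ab_60mer. The difference was 0.12 ± 0.049 (limma adjusted p = 0.193). Rps27l was at 0.20 ± 0.119 (limma adjusted p = 0.365).

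Under mBaffR-mFc, 0 of the 80 passed limma against 5.16% of all genes, and 2 had an unadjusted p under 0.05 (2.5% against 19%). The median, BRFc_60mer minus BRFc_3mer, was -0.08 against -0.02. Of the 80 intervals, 57 lay within that bound (71.2%, against 64.1% of all genes). Without BRFc_60mer replicate 1 the median was -0.04, and without BRFc_60mer replicate 3 it was -0.13. Rpl12, a 60S protein at the base of the P stalk, was at 232.7, 234.4 and 213.9 FPKM in BRFc_3mer and at 189, 205.8 and 210.9 FPKM in BRFc_60mer (-0.17 ± 0.073, limma adjusted p = 0.221). Rpl22l1 was at 313, 306 and 293 FPKM in BRFc_3mer and at 259, 261 and 264 FPKM in BRFc_60mer, without overlap. Its difference was -0.22 ± 0.1 (limma adjusted p = 0.25), and it passed when only these groups were fitted (limma adjusted p = 0.0328).

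**Figure D3:**
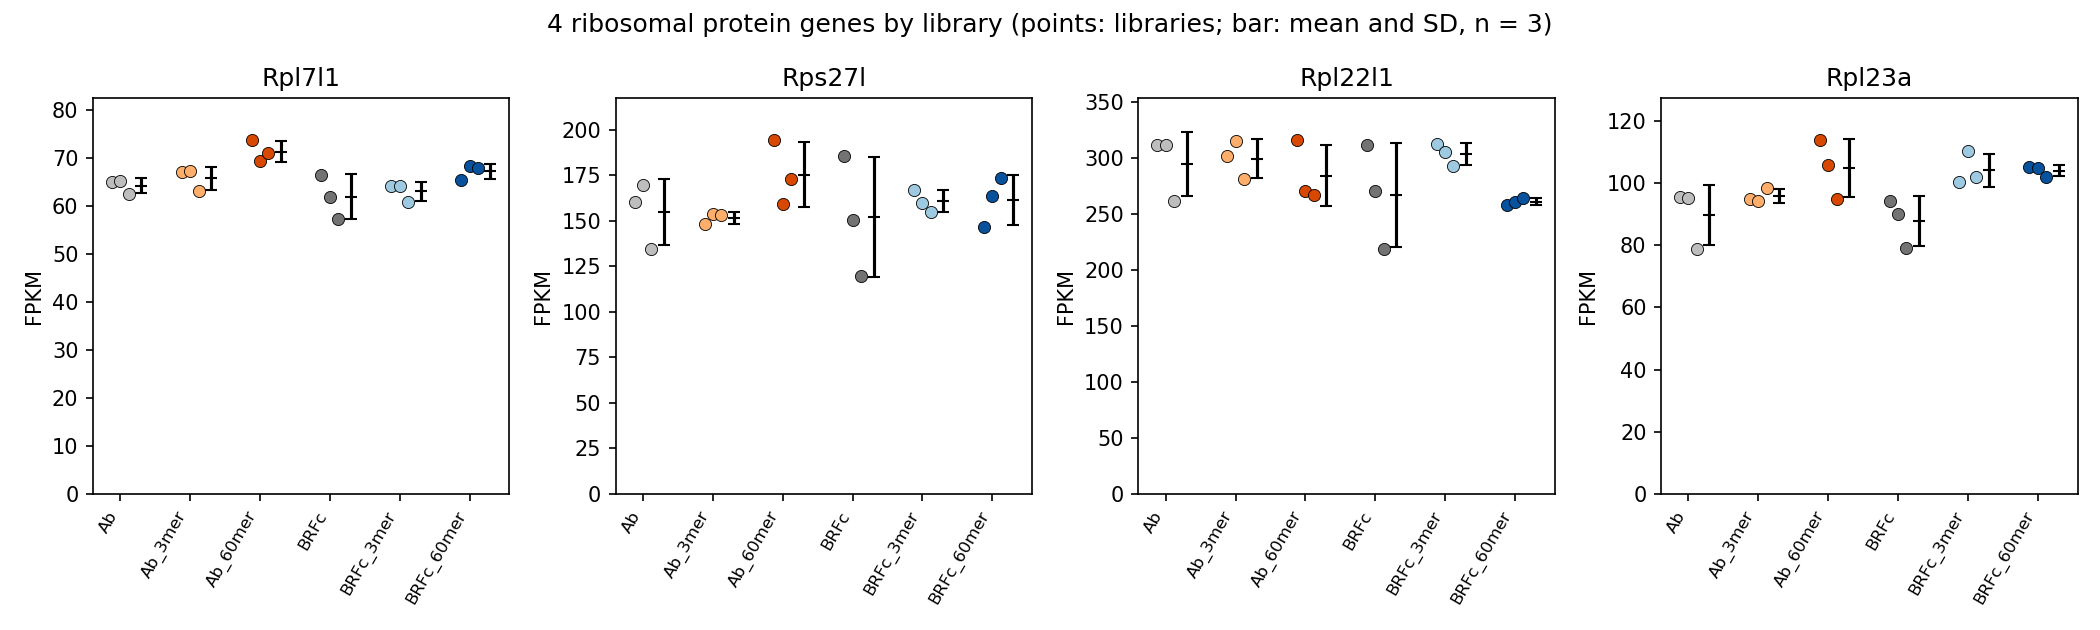
FPKM of Rpl7l1, Rps27l, Rpl22l1 and Rpl23a in the 6 groups, with 1 point per library and the group mean and SD (n = 3) beside the points. Rpl7l1 in Ab_60mer lies at 69.5 to 73.7 FPKM, above the 62.5 to 65.2 FPKM of Ab, and the other genes overlap between most groups.

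The receptor fusion protein itself left the family without a gene that passed at any BAFF state. In cells without BAFF, BRFc minus Ab, 0 of the 80 and 0% of all genes passed limma, and 2 had an unadjusted p under 0.05 (2.5% against 5.91%), Rpl35 (-0.29 ± 0.098) and Rpl13a (-0.18 ± 0.077), with limma adjusted p of 0.829 and 0.831. Without BRFc replicate 3 they were at -0.23 ± 0.107 and -0.07 ± 0.058, and 1 of the 80, Rpl35, had an unadjusted p under 0.05 (against 4.48% of all genes). Of the 80 differences 4 lay above 0, where 5712 of all 11646 genes did, and without BRFc replicate 3 there were 60. The median was -0.08 against 0.00 over all genes. It was 0.02 without BRFc replicate 3 and -0.15 without BRFc replicate 1. With BAFF 3mer, BRFc_3mer minus Ab_3mer, 0 of the 80 and 0% of all genes passed limma, and 0 of the 80 had an unadjusted p under 0.05 (3.88% of all genes), with a median of 0.06 against 0.01. Rps27 (0.23 ± 0.128) and Rps19 (0.15 ± 0.09), a 40S protein whose gene is mutated in Diamond-Blackfan anaemia, had the smallest p (limma adjusted p = 0.998 for both). With BAFF 60mer, BRFc_60mer minus Ab_60mer, 0 of the 80 passed limma against 0.0258% of all genes, and 0 of the 80 had an unadjusted p under 0.05 (4.64% of all genes), with a median of -0.04 against 0.00. Rpl7l1 (-0.08 ± 0.049) and Rpl15 (-0.11 ± 0.077), a 60S protein, had the smallest p (limma adjusted p = 0.993 for both). The intervals within that bound numbered 63, 64 and 72 of the 80. The shares were 78.8%, 80% and 90%, against 73.4%, 74.4% and 73.5% of all genes. Without BRFc replicate 3 the number in cells without BAFF was 74.

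The response to BAFF 60mer was also tested for dependence on the pretreatment. Of the 80, 0 passed limma for this interaction against 0.00859% of all genes, and 1, Rpl35, had an unadjusted p under 0.05 (against 5.5% of all genes). Its interaction was 0.34 ± 0.139 (limma adjusted p = 0.901), and that of Rpl13a was 0.15 ± 0.109 (limma adjusted p = 0.922). With BRFc replicate 3 left out they were 0.27 ± 0.143 and 0.05 ± 0.078, and 0 of the 80 had an unadjusted p under 0.05 in limma (5.36% of all genes). The median interaction was 0.04 against 0.00 over all genes, and -0.07 without BRFc replicate 3. In the F test over all groups, 0 of the 80 passed limma against 8.93% of all genes, and 3 had an unadjusted p under 0.05, Rpl7l1 (limma adjusted p = 0.0813), Rpl23a (0.0826) and Rpl35 (0.178), where 23.6% of all genes did. Rpl8, a 60S protein near the peptidyl transferase centre, came last (limma adjusted p = 0.977).

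**Figure D4:**
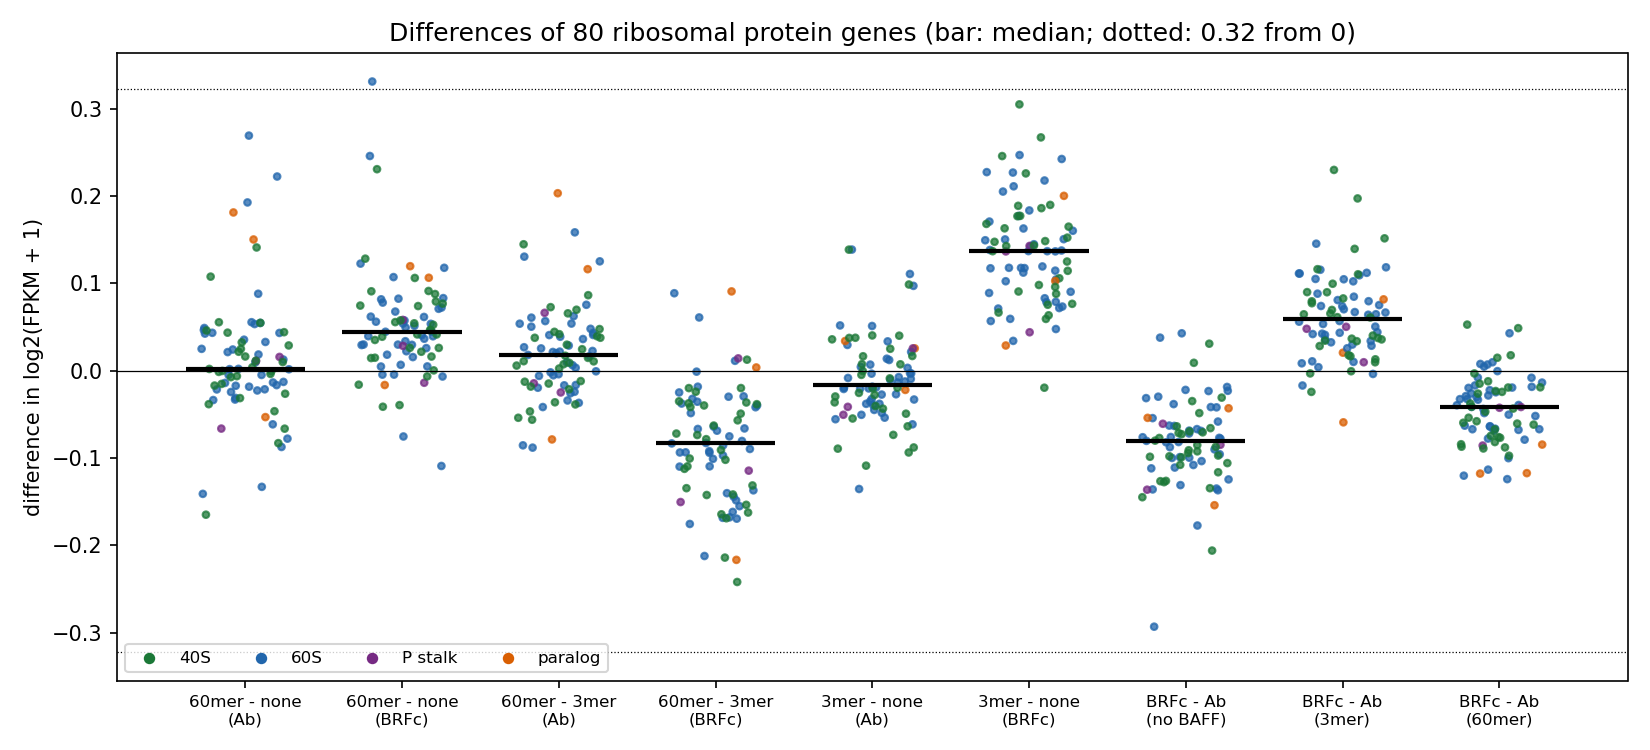
Difference in log2(FPKM + 1) of each of the 80 tested ribosomal protein genes in the 9 comparisons of 2 groups, coloured by subunit, with the median as a bar and dotted lines at 0.32 on either side of 0. The medians lie between -0.08 and 0.14, with the highest for 3mer against no BAFF under mBaffR-mFc.

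Of the ribosomal proteins that the symbol pattern leaves out, Fau, Rack1 and Rpl36al did not pass limma in any of the 9 comparisons of 2 groups, and the one case with an unadjusted p under 0.05 was Fau after BAFF 3mer under mBaffR-mFc (0.21 ± 0.072, SE; limma adjusted p = 0.999). Fau was at 1832 FPKM, Rack1, a 40S protein that binds signalling kinases, at 995 FPKM and Rpl36al at 306 FPKM.

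What the family did show was a shared level that differed between libraries of the same group. After group means were removed, a single component held 84.1% of the remaining variation of the 80 genes on the log2 scale, and the second held 5%. The median correlation between pairs of genes was 0.89 over 3160 pairs and 18 libraries, and 92.5% of pairs exceeded 0.5. Without BRFc replicate 3 the first component held 72.8%, the second 8.86%, and the median correlation between pairs was 0.81. These correlations describe libraries that share their depth and the scaling of the FPKM, and carry no test. The 80 genes had a median correlation of 0.95 with the median of the rest of the family, highest for Rpl11 (0.99). Exceptions were Rpl35 (0.11), Rpl24 (0.24) and Rps2 (0.35), a 40S protein at the mRNA entry, and the other 77 exceeded 0.5. Rps2 was at 1961.9 FPKM (1719 to 2247), with 2034, 2130.05 and 2090.3 FPKM in Ab, where the replicate lowest for the family, replicate 3, was not the lowest for Rps2. Rpl35 and Rpl24 are among the 3 genes with over 40% of exon bases overlapped, and Rpl23a, the third of them, was at 0.68. Without BRFc replicate 3 the same 3 genes were the exceptions, Rpl35 at -0.21, Rpl24 at 0.06 and Rps2 at 0.30, and the median over the 80 was 0.90.

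The component reached other genes to differing degrees. Of 19 other genes with a TOP tract, 12 had a residual correlation over 0.5 with the family (median 0.83), among them Eef1a1, which brings tRNA to the ribosome (0.91), and Tpt1 (0.96). Of 76 mitochondrial ribosomal protein genes, 39 did (median 0.50). When BRFc replicate 3 was left out these were 12 of 19 (median 0.70) and 29 of 76 (median 0.38). The medians were 0.27 for translation initiation factors, 0.24 for MYC and ribosome biogenesis, -0.29 for B cell markers and -0.38 for the mTORC1 list, and over all genes tested the median was -0.07, with 9.8% over 0.5. Of the ribosomal proteins outside the symbol pattern, Rpl36al (0.91), Rack1 (0.89) and Fau (0.87) followed the family. Among the ribosomal protein genes with a RefSeq start, those with the pyrimidine run described above and those without had medians of 0.95 and 0.94.

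By library, the median of the 80 genes, each taken relative to its own mean over 18 libraries, was lowest in BRFc replicate 3 at -0.28 on the log2 scale, where 80 of 80 genes lay below their own mean. The all-gene median there was 0.02, and this library had the largest total, 25.4 M fragments. Next came BRFc_60mer replicate 1 (-0.12) and Ab replicate 3 (-0.11), each with 76 of 80 genes below their mean. The highest were Ab replicate 2 and Ab_60mer replicate 1, both at 0.11. The means by group were 0.02 ± 0.114 in Ab, 0.00 ± 0.031 in Ab_3mer, 0.02 ± 0.087 in Ab_60mer, -0.07 ± 0.187 in BRFc, 0.06 ± 0.013 in BRFc_3mer and -0.02 ± 0.09 in BRFc_60mer (SD, n = 3). The spread within Ab and BRFc exceeded the distance between any pair of group means other than BRFc and BRFc_3mer. In BRFc replicate 3 the other TOP genes had a median of -0.13 and the mitochondrial ribosomal protein genes -0.13. Across the 18 libraries the median of the family and the library total had a Pearson r of -0.27 (p = 0.269) and a Spearman rho of 0.08 (p = 0.76), two-sided permutation tests with 100000 resamples, and this was the only relation of the kind computed. Leaving out the 2 libraries with totals farthest from the median, BRFc replicate 3 and Ab_60mer replicate 1, gave r = 0.60 (permutation p = 0.0152), so its sign rests on those libraries. No ribosomal protein gene passed limma with the library total as a term. The same held without BRFc replicate 3, and without Ab_60mer replicate 1, in the comparisons that use them. What sets the shared level of a library was not tested.

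**Figure D5:**
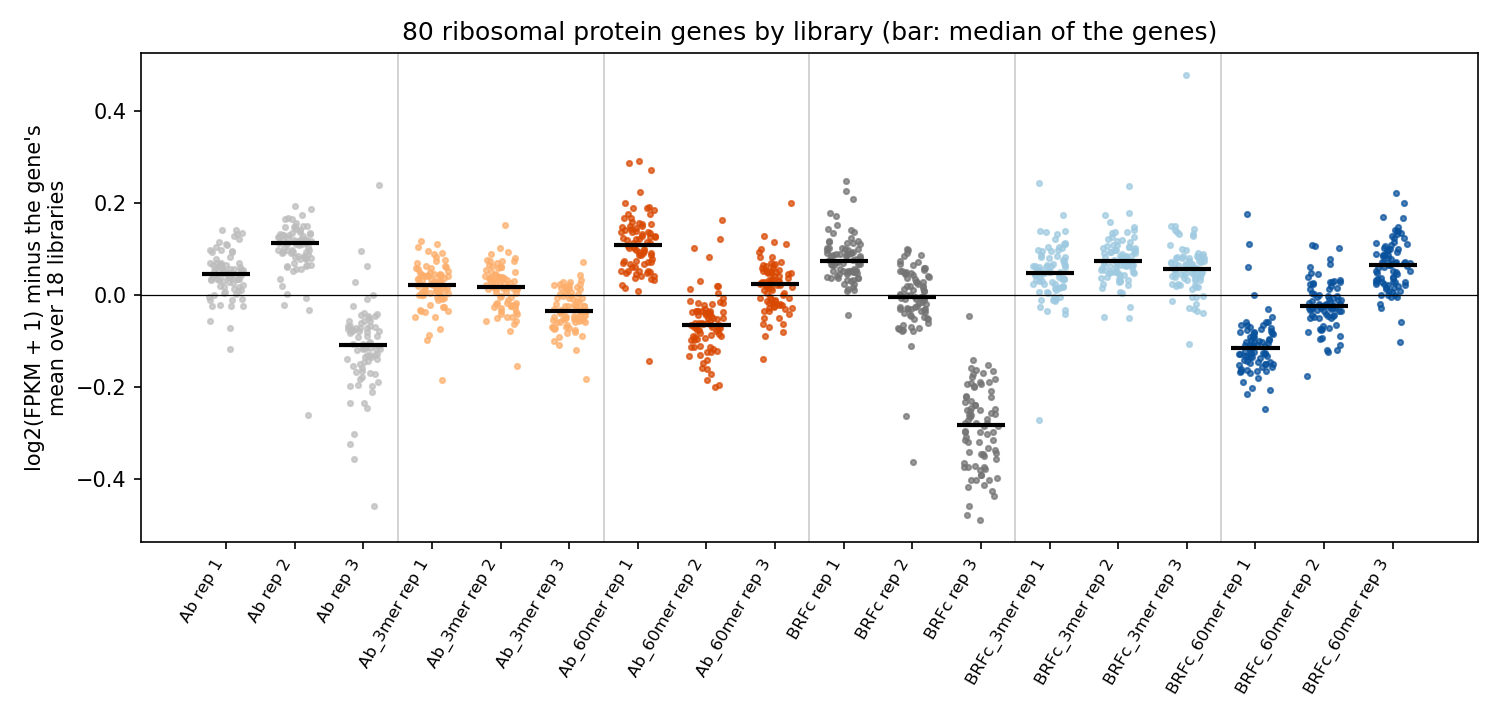
Deviation of each of the 80 tested ribosomal protein genes from its own mean over 18 libraries, in log2(FPKM + 1), with 1 point per gene and the median as a bar in each library. The genes of a library move together: all 80 lie below 0 in BRFc replicate 3 (median -0.28), and the highest medians are 0.11, in Ab replicate 2 and Ab_60mer replicate 1.

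Taking the family's own median in each library as a term of the fit asks which genes departed from the family. This fit was added after seeing the data. For BAFF 60mer after control antibody 6 of the 80 then passed limma (7.5%, against 16.5% of all genes in the same fit). Rpl7l1 (0.15 ± 0.034, SE), Rps27l (0.17 ± 0.046), Rpl23a (0.22 ± 0.061) and Rpl38 (0.18 ± 0.056), a 60S protein known for its role in axial patterning, were higher in Ab_60mer relative to the family. Rpl36 (-0.14 ± 0.035), a 60S protein, and Rpl12 (-0.15 ± 0.046) were lower. Rpl36 was at 1399, 1471 and 1208 FPKM in Ab and at 1318, 1119.7 and 1277 FPKM in Ab_60mer, and Rpl38 was at 1167, 1384 and 988 FPKM and at 1543, 1233 and 1251 FPKM. In FPKM both genes overlapped between the groups, and their departures appear only beside the shared level of each library. Under mBaffR-mFc only Rpl36 passed (-0.14 ± 0.036), against 5.34% of all genes. Between the forms of BAFF, Rps27l passed after control antibody (0.17 ± 0.046) and Rpl7l1 under mBaffR-mFc (0.13 ± 0.036), and none of the 80 passed for BAFF 3mer, for the receptor fusion protein or for the interaction. In each of the comparisons with a passing gene the share of the 80 was below that of all genes.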

How the data were processed

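RNA of 18 libraries, 3 in each of 6 groups, was sequenced by a company that also computed the deposited FPKM values, per the labels' protocols. The aligner, counting tool, genome build and any scaling between libraries are not given in the sources used here. Replicate numbers follow the order of deposition. Symbols came from GENCODE M21 (GRCm38), which matched 34490 of 35275 gene IDs. The steps between low FPKM values gave the library totals, and 90.1% to 91.0% of these values came out whole to within 0.1 fragments.

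The scale was log2(FPKM + 1), which understates differences of low genes. The 11646 genes whose mean over the libraries reached 1 FPKM were fitted with limma 3.58.1 (R 4.3.3), with a trend in the variance and 1 variance per gene over the 6 groups. Steps were tested on simulated data. Genes named are the highest and lowest in level, the paralog genes, and those that pass or, where none does, the 2 with the smallest p in a comparison; Fau, Rack1, Rps27rt, Rps12, Rpl12, Rplp0, Rps6 and genes at the extremes of residual correlation were added after their values were seen. The ribosomal protein genes and all lists were chosen with earlier results of these data known. Copies were found with blastn 2.17.0. No 2 libraries shared more than 0.0945% of tested values exactly. Alternatives were a pseudocount of 0.1, median-of-ratios rescaling, a filter at 5 FPKM or none, rescaling to all other genes, fits of only the groups compared, the library total as a term, a GC content and length correction, leaving out each library, and only libraries with connective tissue transcripts. Co-movement without BRFc replicate 3 was added after seeing the data.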

Additional observations from a re-analysis of the deposited data

How the results depend on the processing

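No ribosomal protein gene passed in any comparison as first fitted, so that every change in the counts below is a rise from 0. For BAFF 60mer after control antibody, 1 gene passed with a minimum mean of 5 FPKM and 1 with median-of-ratios rescaling (Rpl7l1 in both), 2 with rescaling to the FPKM of all other genes (Rpl7l1 and Rpl23a), 2 with the GC content and length correction (Rpl7l1 and Rpl3), 6 with the median of the ribosomal protein genes as a term (a fit added after seeing the data), and 0 to 1 when a library was left out (Rpl23a, without Ab_60mer replicate 3). For BAFF 60mer under mBaffR-mFc, 2 passed with the GC content and length correction (Rpl23a and Rpl35), 1 with the family median as a term (Rpl36), and 0 to 3 when a library was left out (Rpl23a, Rpl35 and Rpl7l1, without BRFc replicate 1). For BAFF 60mer against 3mer, 1 passed under mBaffR-mFc with only the groups compared (Rpl22l1), 1 there with the family median as a term (Rpl7l1) and 1 with it after control antibody (Rps27l). In the F test, 1 passed with the GC content and length correction (Rpl7l1), 4 with the family median as a term, and 0 to 2 when a library was left out (Rpl35 and Rpl7l1 without BRFc replicate 1, Rpl23a without Ab_60mer replicate 3). The cause of these changes was not tested. The other 168 recomputed counts stayed at 0. The genes with the smallest p in each comparison of 2 groups and in the interaction kept the sign of their difference in the settings run. Medians of the family lay between -0.15 and 0.22 on the log2 scale over the settings run, both without BRFc replicate 1. The fit with the family median as a term sets them near 0 by its construction. In the other settings they kept their sign for BAFF 3mer under mBaffR-mFc (0.02 to 0.22), BAFF 60mer against 3mer there (-0.13 to -0.03) and the receptor fusion protein with BAFF 3mer (0.02 to 0.07). The fit among libraries with connective tissue transcripts could be made for BAFF 60mer against 3mer after control antibody and for the receptor fusion protein with BAFF 60mer, and gave 0 in both. No paired analysis was possible because the labels give the libraries no replicate numbers.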
